A study of Arabidopsis thaliana with 4 samples.

Results

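The Aux/IAA and auxin response factor (ARF) genes of Arabidopsis thaliana were examined for peaks of the NAC-domain transcription factor ANAC060. They comprised 52 of 27444 nuclear protein-coding genes, 29 Aux/IAA and 23 ARF. Members were the genes whose symbol or listed synonym in the TAIR10.1 gene table was IAA or ARF followed by digits. The ADP-ribosylation factor genes that carry the symbols ARF1 and ARF3 were left out, 2 in all. Of the members, 44 were found by their current symbol and 8 by a synonym, namely IAA3 (SHY2), IAA4 (ATAUX2-11), IAA17 (AXR3), IAA26 (PAP1), IAA27 (PAP2), ARF3 (ETT), ARF5 (MP) and ARF7 (NPH4). ARF5, ARF7 and ARF19 also carry old IAA names and were counted as ARF genes.

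Auxin changes transcription through these families. ARF proteins bind auxin response elements in promoters, and Aux/IAA proteins bind the ARFs and recruit TOPLESS co-repressors to keep their targets silent. Auxin joins an Aux/IAA protein to an F-box receptor of the TIR1/AFB family, the Aux/IAA protein is degraded, and the ARF is released. Many Aux/IAA genes are themselves induced by auxin, so the pathway feeds back on its own repressors. In seedlings the families are known for their part in root branching, tropic bending and hypocotyl growth.

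Chromatin came from whole 10-day-old seedlings of 1 line, 35S:ANAC060-GFP in the anac060 mutant, in the Col-0 ecotype. The constitutive 35S promoter places the fusion in most cells and not only where ANAC060 is normally made. The fusion was precipitated with a polyclonal anti-GFP antibody from seedlings on medium with 6% glucose (ChIP, glucose) or without glucose (ChIP, no glucose). Each precipitate was set against input DNA, taken without antibody, of wild-type Col-0 seedlings of the same treatment. A precipitate from plants without the tag was not used here. The protocol also names 6% sorbitol, and the labels do not make clear which samples received it. The 4 groups held 1 library each, so the lists cannot be checked against replicates and no test was made. The values below describe the deposited lists, and read depth was unknown.

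The glucose list held 2859 peaks with the authors' scores from 30.02 to 3100, and the no-glucose list held 4155 peaks with scores from 100.01 to 3100. A score is the caller's own value, higher for a peak that stands out more from input, and its percentile below is the peak's place among all peaks of the same list. The lists began at different lowest scores, and their medians were 57.65 with glucose and 180.05 without. Of the 2859 glucose peaks, 674 scored 100 or more. Whether scores can be compared between the lists is not known, so a pair of scores at a gene shows no gain or loss. The same holds for a pair of percentiles, which are taken within lists of unlike lowest score. ANAC060 itself, the source of the transgene, had 171 with glucose and 3100 without. No member's peak lay on chromosome 2 between 3 and 4 Mb, home of a known insertion of mitochondrial DNA.

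Peaks in the gene body or within 1 kb of it were found at more of the Aux/IAA genes than of all genes. In the glucose list 10 of 29 Aux/IAA genes (34.5%) and 5 of 23 ARF genes (21.7%) had a peak, where 18.1% of all protein-coding genes did. In the no-glucose list 11 of 29 Aux/IAA genes (37.9%) and 8 of 23 ARF genes (34.8%) had a peak, where 25.5% of all protein-coding genes did. Over both families the counts were 15 of 52 (28.8%) with glucose and 19 of 52 (36.5%) without. A peak in both lists was found at 7 Aux/IAA genes (24.1%) and 5 ARF genes (21.7%), where 13.9% of all genes had one. The Aux/IAA share minus the ARF share was 12.7 percentage points with glucose and 3.15 points without. With glucose it came to 3.23 points without the 7 ARF genes of a chromosome 1 cluster and to -1.8 points among peaks scoring at least 100, and it was not tested.

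ARF genes are the longer ones, and whether length bears on their share was not tested. The median gene length was 1740 bp for Aux/IAA genes and 3567 bp for ARF genes, against 2078 bp for all genes. Among all genes in the middle range of Aux/IAA lengths, 1358 to 2438 bp, 18.5% had a glucose peak and 25.7% a no-glucose peak. Both values lay below the Aux/IAA shares of 34.5% and 37.9%. Among all genes in the middle range of ARF lengths, 3090 to 4869 bp, the shares were 21.2% and 30.1%. The ARF share of 21.7% in the glucose list was close to the first of these. That of 34.8% in the no-glucose list lay above the second by little more than 1 gene in the 23. With the gene body only, the ARF shares were 13.0% with glucose and 17.4% without, where all genes had 14.3% and 20.9%. The Aux/IAA share was then 27.6% in each list.

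**Figure D1:**
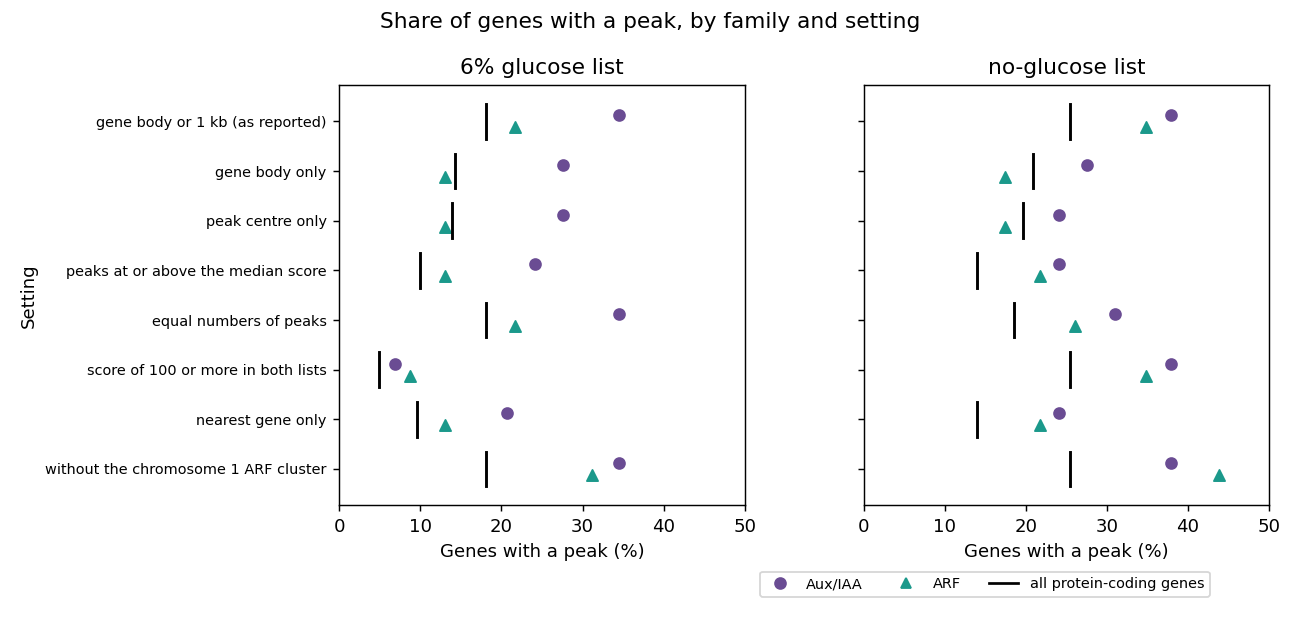
Share of genes with a peak (x axis, percent) under 8 settings (y axis) in the 6% glucose list (left) and the no-glucose list (right), with Aux/IAA genes as circles, ARF genes as triangles and all protein-coding genes as black lines. In the glucose list the Aux/IAA share (34.5% as reported) lies right of the ARF share (21.7%) except at a score of 100 or more, by only 3.23 points without the chromosome 1 ARF cluster, and in the no-glucose list the order turns when that cluster is left out.

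Member peaks spanned low and high scores. Taking the highest peak at each gene, the median score percentile of the Aux/IAA genes with a peak was 62.3 with glucose and 51.2 without. The corresponding medians of the ARF genes were 71.2 and 61.2, and those of all genes with a peak were 54.7 and 55.0. More than 1 peak was listed at 2 of 5 ARF genes with glucose and 3 of 8 without, and at 1 of 10 and 1 of 11 Aux/IAA genes. Among all genes with a peak, 9.64% with glucose and 11.0% without had more than 1.

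Of the Aux/IAA genes, the 7 with a peak in both lists were IAA2, IAA9, IAA11, IAA14, IAA16, IAA19 and IAA34. IAA9 (AT5G65670, chromosome 5, 26253408 to 26256544, TAIR10.1) scored 124.7 with glucose, with the peak centre in the gene body, and 836.06 without. The no-glucose peak was the highest of any Aux/IAA gene in that list, at rank 105 of 4155, and it was 4376 bp wide where the glucose peak was 1815 bp wide. Both peaks had IAA9 as the nearest gene and touched no other protein-coding gene or its 1 kb flank.

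IAA16 (AT3G04730, chromosome 3, 1288155 to 1290891) was the only Aux/IAA gene with 2 peaks in each list. A dominant mutation of IAA16 is known to weaken the response to auxin and to abscisic acid. The peak on the lower-coordinate side scored 72.49 with glucose and 576.39 without. The peak on the higher-coordinate side scored 126.69 with glucose and 559.25 without. Together the peaks covered 46.1% of the gene body with glucose and 86.6% without, the largest cover of any member in the no-glucose list. The lower-side peaks also reached the pathogenesis-related gene PR4. The no-glucose one was centred 1136 bp from IAA16 and nearer to PR4. The higher-side peaks reached RALFL21, a gene of a small signalling peptide.

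IAA2 (AT3G23030, chromosome 3, 8180646 to 8182095), an Aux/IAA gene induced by auxin, scored 82.23 with glucose and 642.28 without. The peaks were nearly the same interval, with 97.0% of the glucose peak and 97.4% of the no-glucose peak in common and centres 72 bp apart. They covered 74.3% of the gene body with glucose, the largest cover of any member in that list, and 69.1% without.

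IAA14 (AT4G14550, chromosome 4, 8347822 to 8350263), known as SOLITARY ROOT for its part in lateral root initiation, scored 78.65 with glucose and 148.65 without. Its peak centres lay 22 bp and 84 bp beyond the higher-coordinate end, and those peaks reached no other gene. IAA11 (AT4G28640, chromosome 4, 14142063 to 14143969) scored 65.97 with glucose and 255.21 without. The IAA11 peaks covered only 1.63% and 8.34% of the gene body, and their centres were nearer to the neighbouring transporter gene ABCB23.

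IAA34 (AT1G15050, chromosome 1, 5181991 to 5183413), whose protein lacks the degron that auxin receptors recognise, scored 84.41 with glucose and 182.55 without. The glucose peak was centred nearer to the neighbour GAT1_2.1 and the no-glucose peak nearer to IAA34. IAA19 (AT3G15540, chromosome 3, 5264001 to 5265695), also named MSG2 and known for tropic bending of the hypocotyl, was the exception among the genes found in both lists. Its glucose peak scored 43.57 and lay over the lower-coordinate end. Its no-glucose peak scored 182.1 and began beyond the higher-coordinate end, where another gene was nearer. These IAA19 peaks did not overlap, and their centres were 2846 bp apart.

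**Figure D2:**
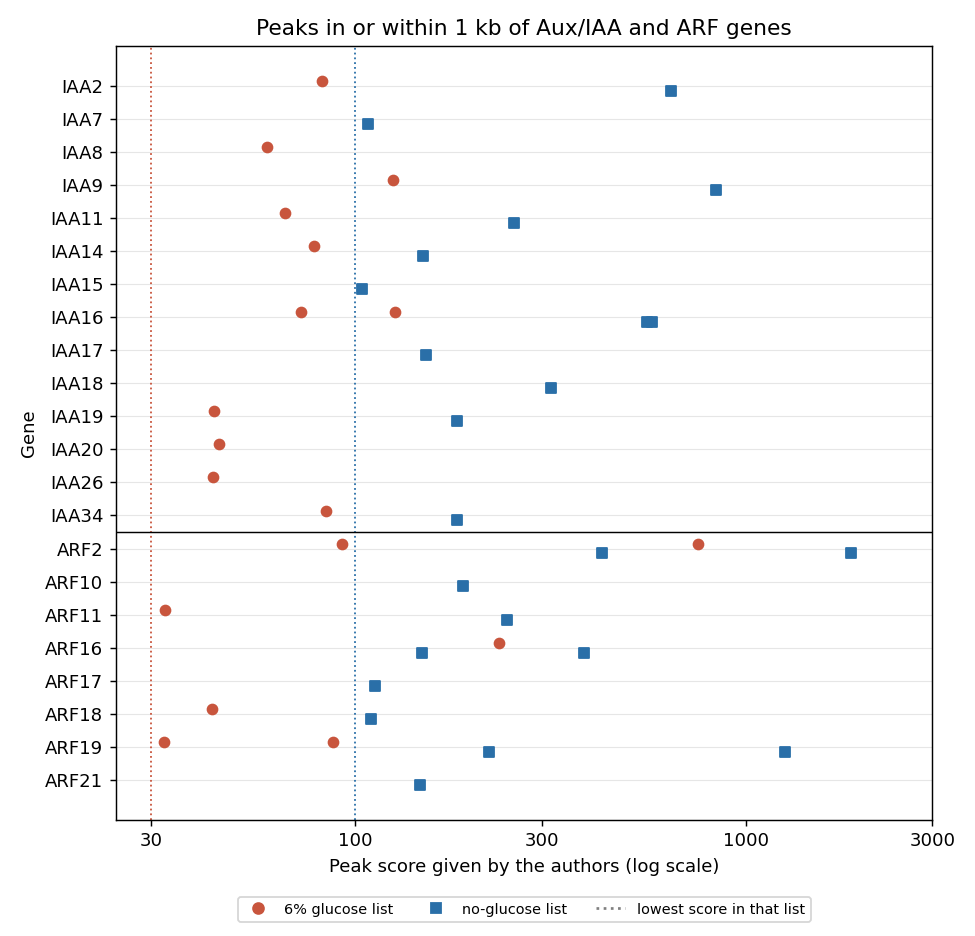
The authors' score (x axis, log scale) of every peak in or within 1 kb of the 22 Aux/IAA and ARF genes that had one (y axis, Aux/IAA above the line), with circles for the 6% glucose list, squares for the no-glucose list and dotted lines at the lowest score of each list. The highest values are those of ARF2 in both lists (753.04 and 1854.03), and the peaks of IAA8, IAA20 and IAA26, in the glucose list alone, lie left of 100.01.

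Of the Aux/IAA genes, 3 (10.3%) had a peak in the glucose list alone, where 4.25% of all genes did. IAA8 (AT2G22670), a close relative of IAA9, scored 59.42 and its peak covered 32.5% of the gene body. IAA20 (AT2G46990) scored 44.81 and IAA26 (AT3G16500) scored 43.26. Those peaks lay outside the gene bodies, at gaps of 414 and 291 bp, and another gene was nearer to the centre. For IAA20 this was ABCB4, an auxin transporter gene. The lowest score in the no-glucose list was 100.01, and what these places scored without glucose below that is not known. The nearest no-glucose peaks were 3831 bp from IAA8, 5326 bp from IAA20 and 2114 bp from IAA26.

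A further 4 Aux/IAA genes (13.8%) had a peak in the no-glucose list alone, close to the 11.6% of all genes. IAA18 (AT1G51950, chromosome 1, 19305081 to 19307518), with a known part in embryo patterning, had the highest of them, at 316.61. That peak stood at percentile 79.6, was centred in the gene body and reached no other gene. The nearest glucose peak was 150025 bp away, the largest such distance among the 37 members without a glucose peak. IAA17 (AT1G04250), known as AXR3 for mutants with altered root gravitropism, scored 152.15. The IAA17 peak began 634 bp beyond the gene and was centred nearer to MPI7. IAA7 (AT3G23050), known as AXR2, scored 108.06 with the peak centred in the gene body. IAA15 had the lowest score of the 4, and its peak lay outside the gene.

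Related Aux/IAA genes were compared next, in groups chosen from textbook knowledge after the values were seen. IAA7, IAA14, IAA16 and IAA17 form a group of close relatives, and all 4 had a no-glucose peak, where 25.5% of all genes did. In the glucose list 2 of the 4 had a peak, IAA14 and IAA16. Of the 6 genes whose proteins lack a complete degron (IAA20 and IAA30 to IAA34), 2 had a peak with glucose and 1 without. Of the 23 genes with the degron, 8 had a peak with glucose (34.8%) and 10 without (43.5%), where all genes had 18.1% and 25.5%. Several Aux/IAA genes sit side by side, and neighbours differed. IAA2 had a peak in both lists, whereas IAA7, 12510 bp away, had one without glucose alone. IAA14 had a peak in both lists, and IAA1, 10732 bp away, had none. IAA17 had a no-glucose peak, and IAA3, 6388 bp away, had none.

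IAA3, known as SHY2 and a brake on cell division in the root tip, was the nearest miss. Its nearest peaks lay 1523 bp from the gene with glucose and 1213 bp without, just beyond the 1 kb limit. At the other side of that limit, the IAA15 peak lay 759 bp from its gene. Aux/IAA genes with no peak in either list also included IAA12 (BODENLOS, the embryonic partner of ARF5) and IAA28, a regulator of lateral root founder cells. The others were IAA1, IAA4, IAA5, IAA6, IAA10, IAA13, IAA27, IAA29, IAA30, IAA31, IAA32 and IAA33, 15 genes in all. A gene without a peak has none above the list's minimum score, which is not a measure of no binding.

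Of the ARF genes, 5 had a peak in both lists, namely ARF2, ARF11, ARF16, ARF18 and ARF19. ARF2 (AT5G62000, chromosome 5, 24910191 to 24915395), a repressor-type ARF known for its part in ageing and organ size, had the highest peak of any member in both lists. The peak over its lower-coordinate end scored 753.04 with glucose, rank 28 of 2859, and 1854.03 without, rank 26 of 4155. These peaks were 6522 bp and 8409 bp wide, and their centres lay 2305 bp and 3361 bp from ARF2, nearer to AT5G61997. The second ARF2 peak lay towards the higher-coordinate end, where the heat shock factor gene HSFB2A is the neighbour. It scored 92.68 in the glucose list, centred in the ARF2 body, and 428.78 in the no-glucose list, centred nearer to HSFB2A.

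ARF19 (AT1G19220, chromosome 1, 6627683 to 6633133), an activator that acts with ARF7 in lateral root formation, likewise had 2 peaks in each list. The peak at its lower-coordinate end scored 87.67 with glucose and 1254.9 without. The glucose peak was 2417 bp wide, while the no-glucose peak spanned 8860 bp around a centre that lay 3697 bp from ARF19. That wide peak also took in the jasmonate repressor gene JAZ1 and 4 other genes, so its score cannot be assigned to ARF19. The peak at the higher-coordinate end had ARF19 as its nearest gene and reached no other. It scored 32.35 with glucose, close to the lowest score of that list, and 220.45 without. The smaller peak lay wholly within the larger one, with centres 166 bp apart.

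ARF16 (AT4G30080, chromosome 4, 14703065 to 14706354), a repressor-type ARF needed for root cap formation together with ARF10, scored 233.3 with glucose and 384.48 without. The glucose value stood at percentile 94.5 and was second to ARF2 among the members in that list. Both peaks ended short of the gene, had ARF16 as the nearest gene, and had centres only 22 bp apart, the smallest distance of any member. A second ARF16 peak, of 148.5, was found in the no-glucose list on the other side, nearer to AT4G30090.

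ARF11 (AT2G46530) scored 32.59 with glucose, percentile 8.03, and 244.22 without, percentile 68.5. Only the no-glucose peak touched the ARF11 body, covering 23.1% of it. ARF18 (AT3G61830) scored 43.03 with glucose and 110.02 without, percentiles 30.4 and 8.95, and other genes were nearer to both peak centres.

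**Figure D3:**
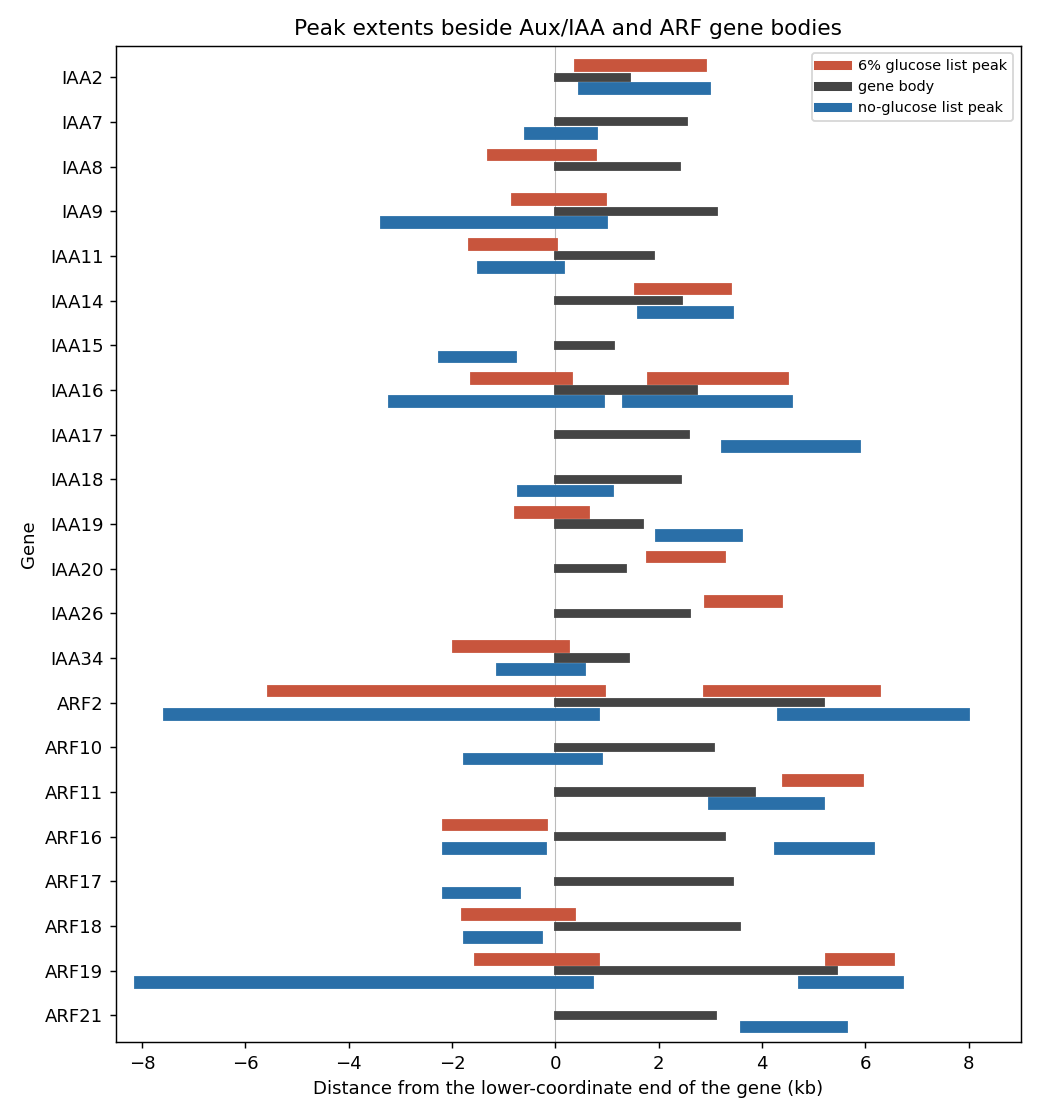
Extent of each peak (coloured bars) and of the gene body (dark bars) for the 22 genes with a peak, as distance from the lower-coordinate end of the gene (x axis, kb), with 6% glucose peaks above and no-glucose peaks below each gene. The peaks of IAA2, IAA14 and ARF16 lie at almost the same place in both lists, those of IAA19 lie at opposite ends of the gene, and the widest reach far beyond ARF2 and ARF19.

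No ARF gene had a peak in the glucose list alone, where 4.25% of all genes did, and 3 (13.0%) had one in the no-glucose list alone, close to the 11.6% of all genes. ARF10 (AT2G28350) scored 189.1, with ARF10 as the nearest gene and 29.2% of its body covered. ARF21 (AT1G34410) scored 146.1 and ARF17 (AT1G77850) scored 112.02, both from peaks that lay outside the gene. The ARF17 peak stood at percentile 10.8 and was centred nearer to AT1G77840. ARF10, ARF16 and ARF17 are the ARF genes targeted by the microRNA miR160. All 3 had a no-glucose peak and 1 a glucose peak, where all genes had 25.5% and 18.1%. Of the 5 activator ARFs, ARF19 alone had a peak, and it had one in each list. ARF5 (MONOPTEROS, which sets up the embryonic root), ARF6 and ARF8 (which act in flower maturation) and ARF7 had none in either list. The nearest peaks to ARF5 lay 6771 bp away with glucose and 6590 bp without.

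The remaining ARF genes with no peak were ARF1, ARF3, ARF4, ARF9, ARF23 and 6 genes of a cluster on chromosome 1. The cluster comprises ARF12, ARF13, ARF14, ARF15, ARF20, ARF21 and ARF22, which lie between 12443547 and 13111700. None of these 7 genes had a glucose peak and ARF21 alone had a no-glucose peak. Peaks were sparse there for other genes as well. Of 110 other protein-coding genes in that interval, 6 (5.45%) had a glucose peak and 8 (7.27%) a no-glucose peak, where all genes had 18.1% and 25.5%. Genes were sparse too, with a median of 33 protein-coding genes within 100 kb of a cluster member against 55 over all genes. Of the 16 ARF genes outside the cluster, 5 (31.2%) had a glucose peak and 7 (43.8%) a no-glucose peak. The Aux/IAA share minus the ARF share then turned to -5.82 percentage points in the no-glucose list, and it was 3.23 points in the glucose list, against 12.7 points with the cluster.

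Member peaks were mostly centred beside the genes, with the centre in the gene body for 2 of 18 glucose peaks and 2 of 23 no-glucose peaks. Most still overlapped the gene body in part, 14 of the 18 with glucose and 15 of the 23 without. Over all pairs of a gene and a peak the centre was in the body in 26.2% of cases with glucose and 21.0% without. The gene table used here gives no strand, so start and end of transcription could not be told apart. Centres were on the lower-coordinate side in 9 and on the higher-coordinate side in 7 glucose cases, and in 11 and 10 no-glucose cases. The member was the nearest gene for 10 of 18 glucose peaks (55.6%) and 12 of 23 no-glucose peaks (52.2%), against 50.3% and 51.7% over all pairs. By family this was 7 of 11 Aux/IAA and 3 of 7 ARF peaks with glucose, and 7 of 12 Aux/IAA and 5 of 11 ARF peaks without. Another protein-coding gene or its flank was reached by 13 glucose peaks (72.2%) and 17 no-glucose peaks (73.9%). For this count and for overlap with the gene body no share over all pairs is given. Neither can therefore be called particular to the members. With each peak given to its nearest gene alone, 9 members had a glucose peak (17.3%, against 9.61% of all genes), 12 a no-glucose peak (23.1%, against 14%) and 6 a peak in both lists (11.5%, against 6.11%).

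Of the 12 members with a peak in both lists, 11 (91.7%) had peaks that overlapped between the lists, IAA19 being the exception, against 96.4% of the 3811 genes of that kind. Overlap of at least 50% of each peak held for 9 of the 12 members, against 86.9% of those genes, and centres within 250 bp for 6 of the 12, against 60.2%. The 6 were IAA2, IAA11, IAA14, IAA16, ARF16 and ARF19.

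Other genes of the auxin pathway were counted by role, without a test between the groups. The TOPLESS co-repressor genes, whose proteins the Aux/IAA proteins recruit, carried glucose peaks at 4 of 5 and no-glucose peaks at 5 of 5 members, where all genes had 18.1% and 25.5%. TPL scored 176.07 with glucose and 489.1 without, and TPR1 scored 83.74 and 427.14. TPR3 scored 114.09 with glucose and 184.38 without, and TPR4 had 213.93 in the no-glucose list alone. Each of these peaks had the co-repressor gene as its nearest gene. Co-repressor genes are long, with a median of 6336 bp.

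Of the 6 auxin receptor genes, 3 had a glucose peak and 4 a no-glucose peak, where all genes had 18.1% and 25.5%. TIR1 scored 66.88 with glucose and 413.36 without, and AFB2 scored 48.96 and 364.39. AFB4 scored 84.32 with glucose and 259.62 without, from peaks nearer to other genes, and AFB3 had 115.01 in the no-glucose list alone. GH3 genes, whose enzymes join auxin to amino acids, had peaks at 4 of 8 members in each list, against the same shares of all genes. GH3.17 scored 62.09 with glucose and 345.23 without, GH3.2 scored 52.72 and 200.84, and GH3.6 scored 70.61 and 177.55. GH3.9 had 168.55 in the no-glucose list alone, from a peak centred 1890 bp away and nearer to GSTF8.

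Genes that make or move auxin had few glucose peaks. Of 12 transporter genes of the PIN and AUX1/LAX families, 1 had a peak with glucose (8.33%) and 4 without (33.3%). The shares of all genes were 18.1% and 25.5%. LAX1 scored 107 with glucose, at the higher of 2 peaks, which was centred nearer to AT5G01250. Without glucose it scored 145.22, from a peak with LAX1 as the nearest gene. LAX3 (197.94), PIN8 (123.93) and LAX2 (116.94) had a peak in the no-glucose list alone, in each case nearer to another gene. Of 14 TAA and YUC genes of auxin synthesis none had a glucose peak and 1 had a no-glucose peak (7.14%), YUC8 at 114.81. Over the 45 genes of these 5 lists, 12 (26.7%) had a peak with glucose and 18 (40.0%) without, against 28.8% and 36.5% of the Aux/IAA and ARF genes.

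**Figure D4:**
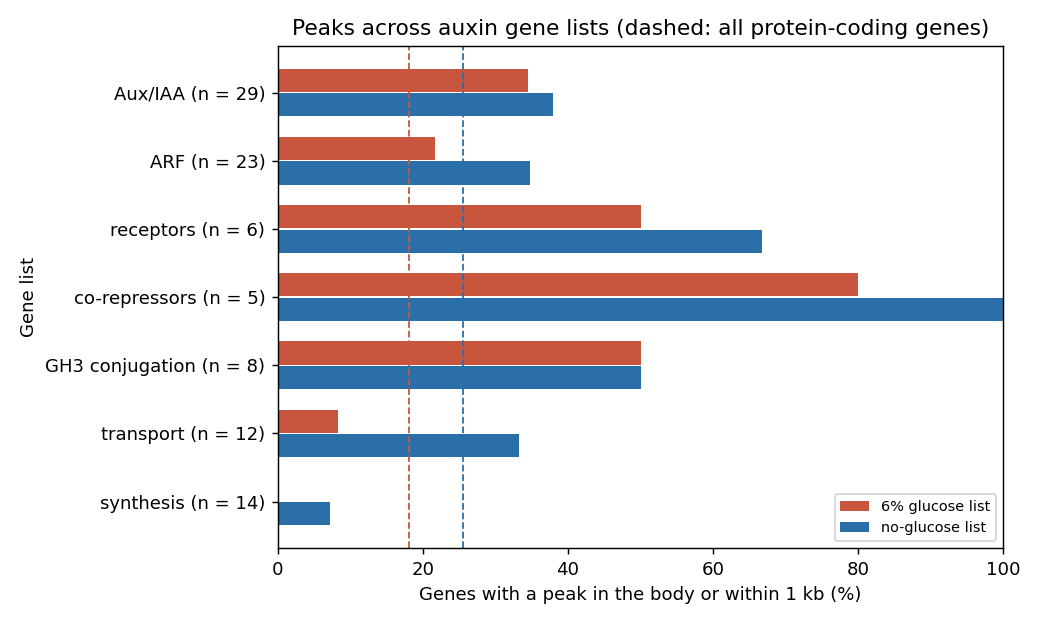
Share of genes with a peak in the body or within 1 kb (x axis, percent) for the Aux/IAA and ARF families and 5 other auxin gene lists (y axis, number of genes in brackets), with the 6% glucose list above the no-glucose list and dashed lines for all protein-coding genes (18.1% and 25.5%). The co-repressor genes have the highest shares and the synthesis genes the lowest, at 0% with glucose and 7.14% without.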

How the data were processed

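The submitters' processing notes name FastQC, the aligner BWA (0.7.15-r1140) and the TAIR10 genome. Per the file headers, MACS called the peaks without a local background model, and the glucose peaks also without a shift model at p 0.001. Peak scores are used as deposited by the authors and come from 1 precipitate against 1 input. No-glucose peaks carry numbers up to 7292 although 4155 are listed, all of them scoring 100 or more. Glucose peaks carry numbers up to 2859, all are listed, and their scores start at 30.02. The lists thus have unlike lowest scores, and the rule that removed the other no-glucose peaks is not stated.

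Starts were made 1-based. A peak counted for a gene if it overlapped the gene body or 1 kb on either side by at least 1 bp. Gene names and positions came from the RefSeq table of TAIR10.1. Tools were Python (3.11.15), numpy (2.4.6), scipy (1.17.1) and pandas (2.3.3). The overlap step was tested on simulated data, where 200 of 200 planted peaks went to their gene. Each planted peak was centred inside its gene body, so peaks lying in the flank alone were not among them. Members and lists were chosen with earlier results of these data known. Values are given for members in both lists and, per list alone, for up to 6 by score, and for up to 4 genes per other auxin list. Motifs, and a split by degron sequence, were planned and not analysed here. Alternatives changed the flank, region, peak part, minimum score, number of peaks, gene assignment and names. Leaving out the chromosome 1 cluster or peaks wider than 5 kb was added after seeing the data.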

Additional observations from a re-analysis of the deposited data

How the results depend on the processing

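Of 63 alternative values of the 5 main results, 43 stayed within 1.5 times the reported value, 18 moved further and 2 turned in sign. Some of the 43 could not have moved, so the tally is no measure of stability. Equal numbers of peaks left the glucose list whole, and a score of 100 or more left the no-glucose list whole. No chromosome 1 cluster gene had a glucose peak, so leaving them out could not change the counts with glucose or in both lists. In the glucose list 15 members had a peak as reported and 4 at a score of 100 or more (7.69%, against 4.93% of all genes). With each peak given to its nearest gene 9 had one (17.3%, against 9.61%). In the no-glucose list 19 had one as reported and 12 with the gene body only (23.1%, against 20.9% of all genes). By peak centre 11 had one (21.2%, against 19.6%). At or above the median score 12 had one, and 12 by nearest gene, each 23.1% against 14% of all genes. In both lists 12 had one as reported and 7 by peak centre (13.5%, against 9.84% of all genes). At a score of 100 or more 4 did (7.69%, against 4.54%), and 6 by nearest gene (11.5%, against 6.11%). Centres within 250 bp held for 6 of the 12, against 60.2% of all genes with a peak in both lists. Each of these settings leaves fewer peaks or less room. The Aux/IAA minus ARF difference with glucose, 12.7 points as reported, was 7.65 points by nearest gene, 3.23 points without the chromosome 1 cluster and -1.8 points among glucose peaks scoring at least 100, with 2 genes of each family left. Without glucose, 3.15 points as reported, it was 0.6 and 10 points with flanks of 500 bp and 2 kb, 10.2 points with the gene body only, 6.75 points by peak centre, 4.95 points at equal numbers of peaks, 1.67 points by current symbol and -5.82 points without the cluster. At 29 and 23 genes, 1 gene moves it by more than its reported size without glucose. At equal numbers of peaks 15 members (28.8%) had a peak in each list, where 18.1% of all genes did with glucose and 18.5% without. Leaving out peaks wider than 5 kb changed no count of members. No paired analysis was possible because each group has 1 library.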

Other observations

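TPR2, a TOPLESS-related co-repressor gene, was singled out after its values were seen. It scored 212.71 in the glucose list (percentile 93.2) and 165.42 in the no-glucose list (percentile 43.9). The lists have unlike lowest scores, so neither pair of values shows a gain or loss. Both peaks had TPR2 as the nearest gene, with centres 272 bp and 275 bp from it.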
